A study of Mus musculus with 5 samples.

Results

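The genes of TGF-beta signalling were examined for Runx3 binding and for the histone mark H3K4me1 in IL-2-activated natural killer cells (NKC). Transforming growth factor beta (TGF-beta) restrains NKC activation, and Runx3 is a transcription factor of the RUNX family. The genes were the ligand Tgfb1, the receptors Tgfbr1 and Tgfbr2, the signal carriers Smad2, Smad3 and Smad4, the inhibitory Smad7 and the co-repressors Ski and Skil, 9 of 22350 protein-coding genes in the annotation. A peak was counted for a gene when it overlapped the gene or its flanks of 20 kb to either side, which is called the window below. This rule found 25 of 11676 Runx3 peaks and 89 of 34204 H3K4me1 peaks. No Runx3 peak lay close to the limit of the rule. The most distant peak inside lay 13.5 kb from its gene, beyond the end of Skil, and the nearest outside lay 25.2 kb from Smad2.

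NKC were isolated from the spleen of ICR mice and cultured for 7 days with 1000 units per ml of human recombinant IL-2, a treatment that all samples shared. ChIP-seq comprised 2 libraries precipitated with an in-house polyclonal antibody to Runx3, 1 library with a monoclonal antibody to H3K4me1, and 2 libraries with non-immune rabbit serum (NIS) as control. No untreated or Runx3-deficient cells were among them, so the comparisons were between genes and between peaks. The peak lists give only the position of each peak, called on joined reads, so peak height, depth and the error between replicates could not be computed from the lists and the values below carry no replicate error. All 9 NKC marker genes examined, among them Ncr1, Klrb1c and Prf1, had Runx3 and H3K4me1 peaks in their windows, where 41.1% and 51.1% of all protein-coding genes had them. Runx3 peaks were also present at 3 of 5 B cell genes, 2 of 3 T cell genes and 3 of 4 myeloid genes, and H3K4me1 peaks at 4, 2 and 3 of them. Peaks mark chromatin and do not measure expression.

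TGF-beta binds Tgfbr2, which recruits and phosphorylates Tgfbr1. The activated receptor phosphorylates the receptor-regulated Smads Smad2 and Smad3, which join the common partner Smad4, enter the nucleus and bind DNA beside other factors, RUNX proteins among them. Smad7 blocks the receptor, while Ski and Skil (also known as SnoN) hold Smad complexes in a repressed state. H3K4me1 is enriched at enhancers and at the flanks of active promoters.

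Sequences are shown for the centres of the Runx3 peaks closest to the starts of Tgfbr1, Ski and Skil, each less than 1 kb from that start. Those of the widest Runx3 peaks of Smad3, Tgfbr2 and Ski are shown too. These widest peaks overlapped H3K4me1 and lay away from the promoter. This is a selection, and not every peak that close to the start of its gene is shown. Each run is 300 bases of mm9, written 5′ to 3′ on the strand of the gene, and capitals mark RUNX motif words on either strand. The RUNX motif has 4 such words, named TGTGGT and, with C in the last place, TGTGGC, and likewise TGCGGT and, with C last, TGCGGC.
Tgfbr1 promoter peak, chr4:47365752-47366051, plus strand: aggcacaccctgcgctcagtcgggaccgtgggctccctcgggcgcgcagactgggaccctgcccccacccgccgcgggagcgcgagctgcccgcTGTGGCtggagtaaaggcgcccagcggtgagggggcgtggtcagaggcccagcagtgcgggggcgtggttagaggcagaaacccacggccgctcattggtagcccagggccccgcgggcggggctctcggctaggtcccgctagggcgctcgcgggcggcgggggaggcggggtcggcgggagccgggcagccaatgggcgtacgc
Ski promoter peak, chr4:154597522-154597821, minus strand: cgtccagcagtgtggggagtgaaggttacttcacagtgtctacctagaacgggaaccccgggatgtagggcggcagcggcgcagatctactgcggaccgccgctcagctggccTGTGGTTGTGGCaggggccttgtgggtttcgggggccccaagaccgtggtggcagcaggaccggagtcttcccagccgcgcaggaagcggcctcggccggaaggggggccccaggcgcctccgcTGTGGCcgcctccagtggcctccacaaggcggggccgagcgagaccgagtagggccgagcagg
Skil promoter peak, chr3:30993650-30993949, plus strand: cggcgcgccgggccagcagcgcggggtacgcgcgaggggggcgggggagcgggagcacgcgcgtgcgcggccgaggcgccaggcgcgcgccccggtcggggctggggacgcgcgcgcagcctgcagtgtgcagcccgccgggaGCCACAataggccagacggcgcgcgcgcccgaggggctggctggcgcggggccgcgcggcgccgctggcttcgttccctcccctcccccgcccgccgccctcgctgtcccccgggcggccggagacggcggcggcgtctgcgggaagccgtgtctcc
Smad3 widest peak, chr9:63588356-63588655, minus strand: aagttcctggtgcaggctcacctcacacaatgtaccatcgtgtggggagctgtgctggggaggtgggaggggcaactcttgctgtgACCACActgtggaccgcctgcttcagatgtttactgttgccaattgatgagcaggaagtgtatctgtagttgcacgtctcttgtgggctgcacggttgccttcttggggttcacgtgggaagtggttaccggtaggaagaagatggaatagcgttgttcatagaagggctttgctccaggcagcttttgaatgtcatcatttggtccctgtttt
Tgfbr2 widest peak, chr9:116090781-116091080, minus strand: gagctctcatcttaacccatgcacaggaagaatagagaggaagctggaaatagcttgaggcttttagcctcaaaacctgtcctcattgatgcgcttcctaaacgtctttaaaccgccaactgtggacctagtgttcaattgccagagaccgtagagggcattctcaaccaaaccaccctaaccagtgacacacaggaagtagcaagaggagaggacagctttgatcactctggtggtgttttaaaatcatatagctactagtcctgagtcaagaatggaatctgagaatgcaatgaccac
Ski widest peak, chr4:154575026-154575325, minus strand: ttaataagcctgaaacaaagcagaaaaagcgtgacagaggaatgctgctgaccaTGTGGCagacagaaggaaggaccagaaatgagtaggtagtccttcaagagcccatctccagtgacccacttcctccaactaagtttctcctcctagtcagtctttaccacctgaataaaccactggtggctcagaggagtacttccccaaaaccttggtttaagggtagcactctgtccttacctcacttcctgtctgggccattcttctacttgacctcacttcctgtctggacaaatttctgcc
The Ski promoter run held 3 RUNX words, of which TGTGGT and TGTGGC lay end to end. The Tgfbr1, Skil, Smad3 and second Ski runs held 1 word each. The Tgfbr2 run held none of the 4 words, the closest to the centre of that peak being 345 bp away.

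Runx3 peaks were present at 8 of the 9 genes, against 41.1% of all protein-coding genes under the same rule. H3K4me1 peaks were present at 7 genes, against 51.1% of all genes, and a Runx3 peak that overlapped H3K4me1 was present at 5, against 20.5% of all genes. Within these windows Smad2 was the gene without a Runx3 peak, and Tgfbr1 and Skil were those without H3K4me1. With flanks of 50 kb all 9 genes had both. The shares of all genes given here hold for flanks of 20 kb only, so they are no measure for that count. To allow for gene length, each gene was also set beside the protein-coding genes whose windows were within 20% of its own in span. The median over all genes was 0 Runx3 peaks and 1 H3K4me1 peak per window.

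**Figure D1:**
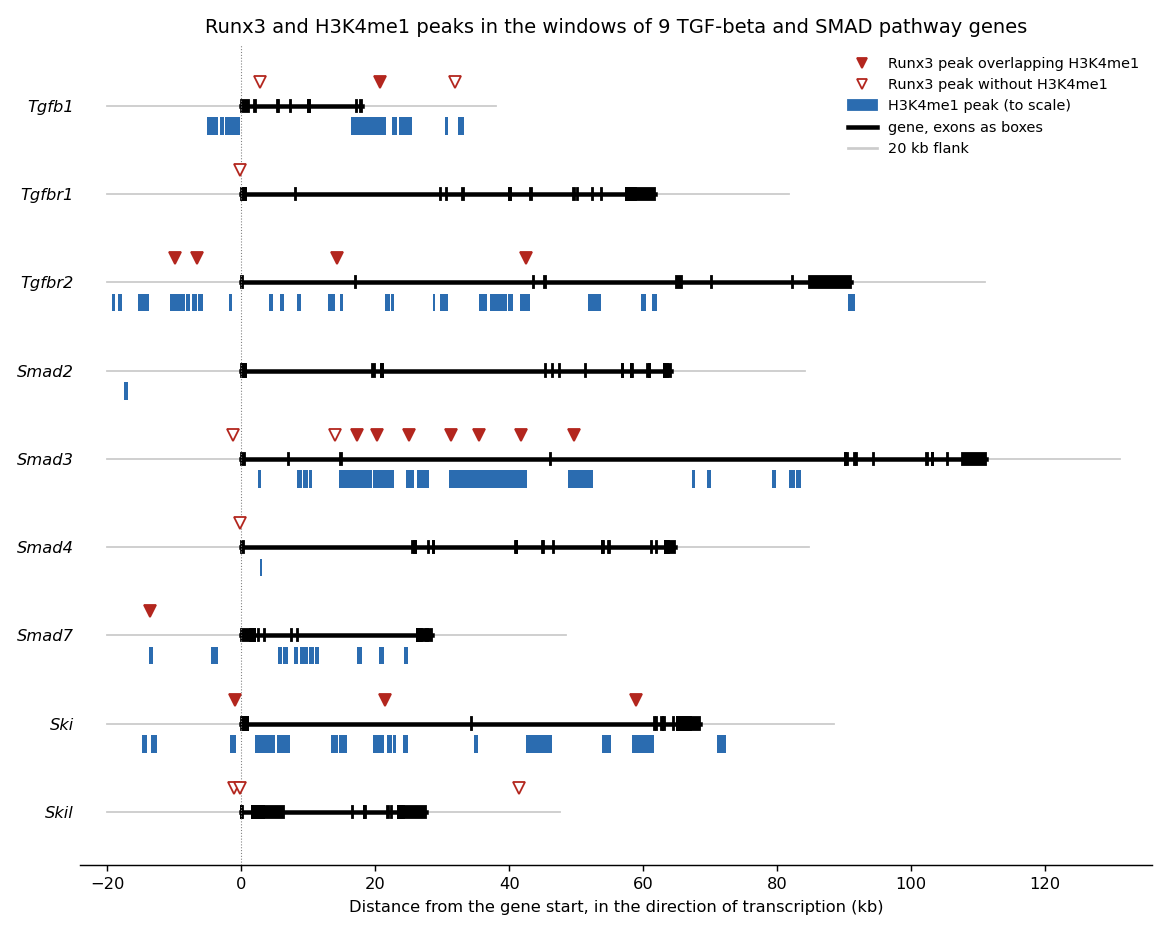
Runx3 peaks (triangles, filled where they overlap H3K4me1) and H3K4me1 peaks (blue bars) along the 9 genes, by distance from the gene start in kb. Runx3 peaks were stacked along the first part of Smad3, Tgfbr1 and Smad4 had a single peak at the start, and the windows of Tgfbr1 and Skil held no H3K4me1.

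Within these windows the genes fell on either side of a gap in H3K4me1. Tgfb1, Tgfbr2, Smad3, Smad7 and Ski had 11 to 27 H3K4me1 peaks each, which covered 11.9% to 23.6% of their windows. Tgfbr1, Smad2, Smad4 and Skil had 1 or 0, covering at most 0.619%. The gap depended on the flanks. Tgfbr1 had 8 H3K4me1 peaks with flanks of 50 kb, and in GREAT domains, which extend to the neighbouring genes, it had 11, as did Tgfb1. Without flanks Tgfb1 had 2. Joining peaks closer than 1 kb narrowed the gap in counts. It left 4 peaks at Tgfb1, 6 at Smad7, 10 each at Smad3 and Ski and 14 at Tgfbr2, against 1 or 0 at the other genes. The windows of the 5 marked genes spanned 58.1 to 151 kb and those of the other 4 spanned 67.5 to 105 kb, so the ranges of span overlapped. Of the 20 Runx3 peaks at the marked genes 16 overlapped H3K4me1, and of the 5 at the other genes 0 did. The genes were grouped by their H3K4me1 peak counts, so this difference was largely set by the grouping. Of the 5 peaks, the 1 at Tgfbr1 and the 3 at Skil lay in windows without H3K4me1 and could not overlap it. The peaks at the sparsely marked genes were richer in GC, with a median of 69.2% against 51.9%. These medians rest on 5 and 20 peaks, of which 3 and 4 were centred less than 1 kb from a start of any gene. Over all Runx3 peaks, the median GC was 58.6% for peaks that close to a start and 48.1% for the others. The part of position in the GC contrast was not tested.

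**Figure D2:**
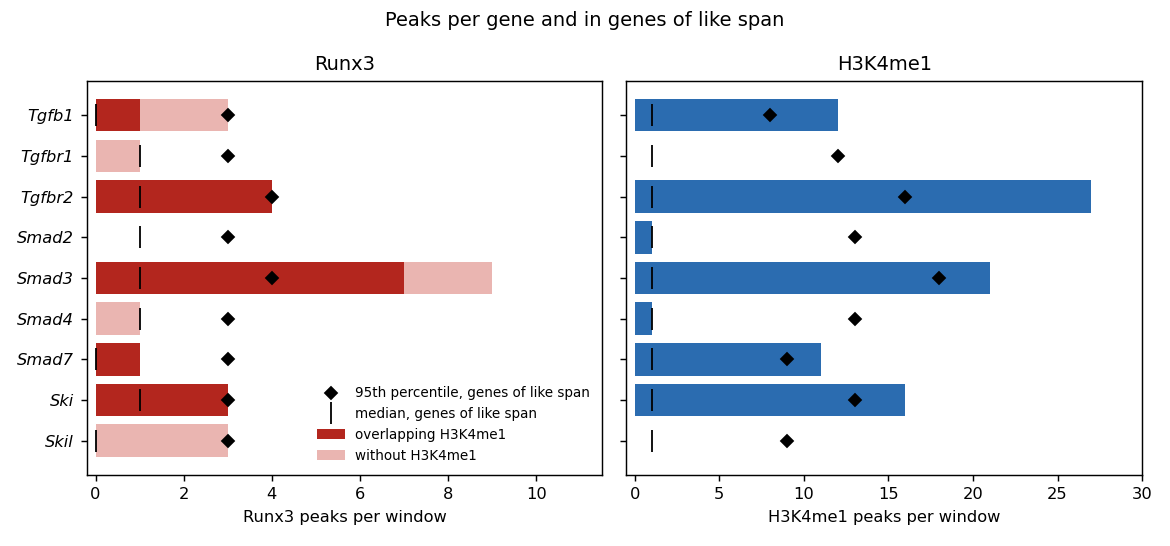
Runx3 peaks (left, dark where they overlap H3K4me1) and H3K4me1 peaks (right) per window, with the median (line) and the 95th percentile (diamond) of genes of like span. Smad3, with 9 Runx3 peaks, lay beyond the 95th percentile of 4, and Tgfb1, Tgfbr2, Smad3, Smad7 and Ski lay beyond it for H3K4me1.

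Tgfb1, which encodes the ligand, lies on chr7:26472021-26490096 (plus strand, ENSMUSG00000002603) and had 3 Runx3 peaks and 12 H3K4me1 peaks. Of 8100 genes of like span, 6.53% had as many Runx3 peaks or more and 1.70% as many H3K4me1 peaks or more. H3K4me1 covered 23.6% of the window, the largest share of the 9 genes, in a band upstream of the start and another across the end of the gene. The Runx3 peak closest to the start lay in intron 1 (chr7:26474422-26475219, 2799 bp downstream of the start and 874 bp from an internal start of Tgfb1), with no H3K4me1 nearer than 2625 bp. The second lay 20704 bp from the start, beyond the end of the gene, and overlapped H3K4me1. It held 3 RUNX words, all TGTGGT, and 11 copies of the SMAD word CAGAC, the most of the 25 peaks and a number that 0.274% of all Runx3 peaks reached. The third lay 31871 bp downstream, inside the neighbouring gene Ccdc97 and 118 bp from its start, in a gap of 1487 bp between H3K4me1 peaks. The Tgfb1 window holds 5 other protein-coding genes, so its peaks cannot be given to Tgfb1 alone.

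The receptor genes differed in both measures. Tgfbr1, the type I receptor (chr4:47366094-47427803, plus strand, ENSMUSG00000007613), had 1 Runx3 peak, centred 192 bp upstream of the start and overlapping the first exon (chr4:47365470-47366335). It was 866 bp wide, with a GC content of 70.3% and 3 RUNX words. Having at least 1 Runx3 peak was common among its 2742 genes of like span, at 51.5%. Its window held no H3K4me1, and the nearest such peak was 33.4 kb from the start. Tgfbr2, the type II receptor that binds the ligand (chr9:115993415-116084383, minus strand, ENSMUSG00000032440), had 4 Runx3 peaks and 27 H3K4me1 peaks, the most H3K4me1 peaks of the 9 genes. Of 1857 genes of like span, 6.62% had as many Runx3 peaks or more and 1.56% as many H3K4me1 peaks or more.

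No Runx3 peak of Tgfbr2 lay at the promoter. They lay 9853 and 6548 bp upstream and 14282 and 42433 bp downstream of the start, the latter pair in intron 1, and all 4 overlapped H3K4me1. The centres of the middle pair lay in gaps between H3K4me1 peaks. At 6548 bp upstream (chr9:116090515-116091347) the gap was 185 bp long and the Runx3 peak overlapped H3K4me1 on both sides, and at 14282 bp downstream the gap was 709 bp. Their RUNX words numbered 3, 1, 2 and 3, in order from the most upstream. Of the 27 H3K4me1 peaks, 9 were centred upstream, 17 in introns and 1 beyond the end of the gene, and their median width was 769 bp.

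Smad3, a receptor-regulated Smad (chr9:63494574-63605801, minus strand, ENSMUSG00000032402), had 9 Runx3 peaks, the most of the 9 genes. Over all protein-coding genes, 23 had 9 or more Runx3 peaks (0.103%), and of 1486 genes of like span 4 did (0.269%). The first peak lay 1251 bp upstream of the start. The other 8 lay in intron 1 of the longest transcript, at 13984, 17295, 20287, 25047, 31253, 35421, 41690 and 49610 bp from the start, with a median step of 5.48 kb between neighbouring peaks and 50.9 kb from the first to the last of all 9. The last 7 of these overlapped H3K4me1. The 13984-bp peak did not overlap it but lay 322 bp from an H3K4me1 peak, and its centre was 745 bp from an alternative start of Smad3. The peak upstream of the start lay 3393 bp from the nearest H3K4me1 peak.

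All 21 H3K4me1 peaks of Smad3 were centred in introns, and 7 of them overlapped Runx3. They covered 32.2 kb, or 21.3% of the window. The widest was 8537 bp long, against a median of 689 bp over all H3K4me1 peaks, and took in the Runx3 peaks at 35421 and 41690 bp. The Runx3 peak with the most RUNX words was the farthest from the start (chr9:63555792-63556591), with 6 words, 4 of them TGTGGT. The widest Runx3 peak (860 bp, chr9:63588077-63588936) held 1 word. The peak at 35421 bp held 7 copies of CAGAC, a number that 2.20% of all Runx3 peaks reached.

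Smad2, the paralogue of Smad3 (chr18:76401234-76465385, plus strand, ENSMUSG00000024563), had no Runx3 peak and 1 H3K4me1 peak, of 645 bp and centred 17225 bp upstream of the start. The nearest Runx3 peak was 25571 bp from its start. Among its 2615 genes of like span 51.7% had a Runx3 peak. Smad2 and Smad3 thus had 0 and 9 Runx3 peaks and 1 and 21 H3K4me1 peaks. The reads were 40 bases long, and only those that aligned to a single place were kept. Of the 40-base words in the Smad2 window 94.2% occurred once in the genome, against 98.3% of those in the Smad3 window, and within 1 kb of either start 100% did. The part of this in the peak counts was not tested.

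Smad4, the common partner of the receptor-regulated Smads (chr18:73798663-73863434, minus strand, ENSMUSG00000024515), resembled Tgfbr1. Its single Runx3 peak was centred 156 bp upstream of the start and overlapped the first exon. It was 793 bp wide, held 3 RUNX words and had a GC content of 69.2%. The sequence of this peak is not among those shown. The window held 1 H3K4me1 peak, of 306 bp and 2888 bp downstream of the start, which Runx3 did not overlap. Of 2584 genes of like span, 51.8% had at least 1 Runx3 peak. Its window had the lowest share of unique 40-base words of the 9, at 87.3%.

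Smad7, the inhibitory Smad (chr18:75527183-75555589, plus strand, ENSMUSG00000025880), had 1 Runx3 peak and 11 H3K4me1 peaks. The Runx3 peak lay 13676 bp upstream (chr18:75513036-75513979), overlapped H3K4me1, and was 944 bp wide with 6 RUNX words and 5 copies of CAGAC. The closest annotated start was that of RP24-263P17.1, at 13235 bp. At least 1 Runx3 peak was present at 46.4% of 5818 genes of like span, whereas 2.96% of them had as many H3K4me1 peaks or more. Of the 11 H3K4me1 peaks, 9 were centred in introns and 2 upstream, and 1 overlapped Runx3.

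The co-repressor paralogues Ski and Skil had 3 Runx3 peaks each and differed in H3K4me1, with 16 peaks at Ski and 0 at Skil. At Ski (chr4:154528184-154596701, minus strand, ENSMUSG00000029050) the Runx3 peaks lay 971 bp upstream and 21525 and 58941 bp downstream of the start, the latter pair in intron 1, and all 3 overlapped H3K4me1. They held 7, 6 and 6 RUNX words, and 5.06% of all Runx3 peaks had 7 or more. The 21525-bp peak (1141 bp, chr4:154574606-154575746) overlapped 2 H3K4me1 peaks, its centre lying in the gap of 350 bp between them. It held 10 ETS words, the most of the 25 peaks and a number that 0.891% of all Runx3 peaks reached. Word counts were not adjusted for peak width, and 6.83% of all Runx3 peaks were at least as wide as this one. Of 2420 genes of like span, 10.9% had as many Runx3 peaks as Ski or more and 3.60% as many H3K4me1 peaks or more.

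At Skil (chr3:30993980-31021499, plus strand, ENSMUSG00000027660) the Runx3 peaks lay 1064 and 180 bp upstream and 41447 bp downstream of the start. The peak 180 bp upstream (chr3:30993302-30994299) was 998 bp wide and overlapped the first exon. Its GC content of 80.5% was the highest of all 11676 Runx3 peaks, and it held 7 RUNX words, of which 4 were TGCGGC and 0 were TGTGGT, and 8 copies of CAGAC. The peak 41447 bp downstream, whose closest start was that of Cldn11 at 13441 bp, was the only peak of the 25 without a RUNX word. The nearest H3K4me1 peak was 34.2 kb from the start of Skil. Of 5982 genes of like span, 7.32% had as many Runx3 peaks or more, and 9.23% had Runx3 peaks and no H3K4me1.

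As to position, 13 of the 25 Runx3 peaks were centred in introns, 9 upstream and 3 beyond the end of their gene, and 21 were closer to a start of their own gene than to that of any other. Tgfbr1, Smad4, Ski and Skil had a peak centred within 1 kb of their own start. All 13 intronic peaks lay in intron 1 of the longest protein-coding transcript, against 40.9% of the intronic Runx3 peaks of all protein-coding genes. They were 8 at Smad3, 2 each at Tgfbr2 and Ski and 1 at Tgfb1. Intron numbers refer to that transcript throughout. Inside this intron, other annotated transcripts of Tgfb1, Smad3, Tgfbr2 and Ski have exons, so its number need not hold for them. The first introns of the 9 genes are long, making up 56.3% of their intron length against 27.1% over all genes, with 84.4% at Smad3 and 96.2% at Ski.

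Counting the starts of all genes, the centre lay less than 1 kb from a start at 7 of 25 Runx3 peaks (28%, with a 95% Wilson interval from 14.3 to 47.6), against 25.3% of all Runx3 peaks. These are called proximal and the others distal. H3K4me1 overlapped 16 of 25 peaks (64%, 44.5 to 79.8), and the 48.4% found over all Runx3 peaks lay within that interval, which covers counting error only. Overlap was found at 1 of the 7 proximal peaks, that of Ski, and at 15 of the 18 distal peaks (83.3%, 60.8 to 94.2), against 20.5% and 57.8% over all proximal and distal Runx3 peaks. Since 8 of the distal peaks belong to Smad3, they are not independent. Conversely, 18 of the 89 H3K4me1 peaks overlapped Runx3 (20.2%, 13.2 to 29.7), a share close to the 19.9% of all H3K4me1 peaks.

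**Figure D3:**
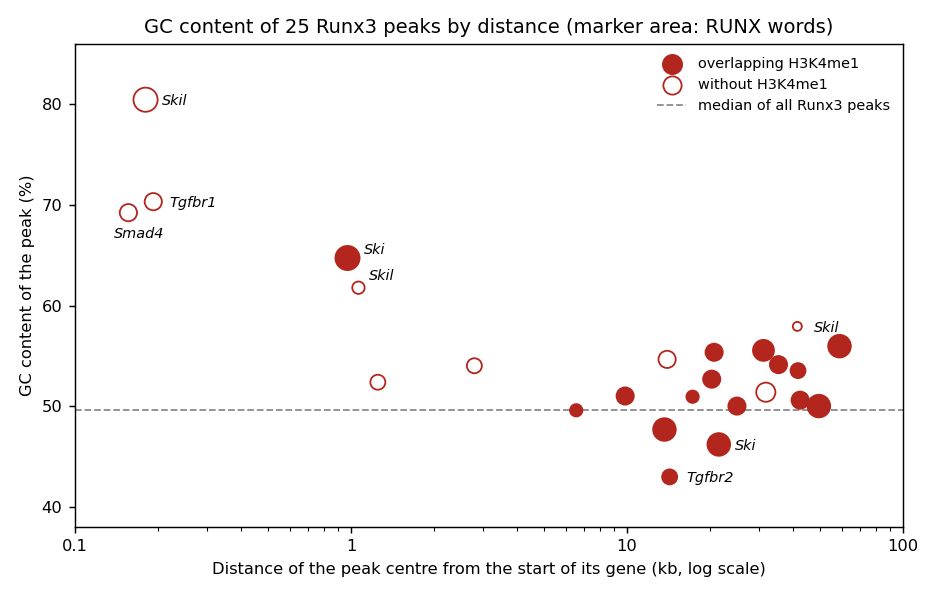
GC content of each of the 25 Runx3 peaks (percent) against the distance of its centre from the start of its gene (kb, log scale), filled where the peak overlaps H3K4me1 and with marker area by RUNX words. The peaks of Skil, Tgfbr1 and Smad4 within 1 kb of the start had 80.5%, 70.3% and 69.2% GC and no H3K4me1, whereas the distal peaks had a median of 51.7%. The Ski peak within 1 kb of the start had 64.7% GC and overlapped H3K4me1. The other proximal peaks, in the windows of Tgfb1 and Smad3, had 51.4% to 54.6% GC and no H3K4me1.

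The proximal peaks had a median GC content of 64.7% and a CpG ratio, observed over expected, of 0.803, and the distal peaks 51.7% and 0.213. Over all Runx3 peaks the same medians were 58.6% and 0.730 for proximal and 48.1% and 0.203 for distal peaks. A RUNX word was present in 24 of 25 peaks (96%, 80.5 to 99.3), as in 96.0% of all Runx3 peaks, with a median of 3 words in both sets. Of the 25 peaks 72% had TGTGGT, against 75.9% of all Runx3 peaks, and 64% had TGTGGC, against 57.7%. The rarer TGCGGT was present in 24%, against 21.8%, while 16% had TGCGGC, against 19.2%. Each share over all peaks lay within the 95% Wilson interval around that of the 25.

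For words of partner families too, the shares over all peaks lay within the intervals of the 25. ETS words, bound by the Ets factors (AGGAAA with its variant AGGAAG, and CGGAAA with its variant CGGAAG), were present in 92% of the 25 peaks and 91.4% of all Runx3 peaks, and AP-1 words (TGACTCA or TGAGTCA) in 24% and 26.2%. The SMAD word CAGAC, short and therefore frequent by itself, was present in 84% and 84.4%. An ETS word within 50 bp of a RUNX word was found in 68% and 59.2%, and an AP-1 word within 50 bp of a RUNX word in 12% and 12.7%. All words were sought on both strands. In the promoter windows from 250 bp upstream to 50 bp downstream of the start, a RUNX word was present at 5 of the 9 genes, Tgfbr1, Smad4, Smad7, Ski and Skil, against 45.3% of all protein-coding genes.

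The pathway was followed beyond these genes with 60 others in 5 lists. Runx3 peaks were present at 35 of them (58.3%) and H3K4me1 peaks at 43 (71.7%), while 10 had neither. Over all protein-coding genes the shares were 41.1% and 51.1%, and among the genes of like span to each of the 9 they were 44.4% to 51.9% and 57.1% to 60.3%. The like-span shares were built on the windows of the 9 genes, of 58.1 to 151 kb. Windows of the 60 genes spanned 41.2 to 427 kb, and no share of like span is given for them. The counts of the 5 lists below, each of 4 to 23 genes, are to be read against the shares over all protein-coding genes, which do not allow for span. Among further ligands and receptors, 7 of 12 had a Runx3 peak, none more than 1, among them Tgfb3, another ligand, the receptor Acvr1b and the co-receptor Tgfbr3, whose windows held 6, 5 and 5 H3K4me1 peaks, and 5 had none. Of the genes of ligand storage and release 5 of 9 had Runx3 peaks and 4 had none. Furin, a protease that cleaves the TGF-beta precursor, and Nrros, which anchors latent TGF-beta, had 3 each, and Ltbp3, a latent TGF-beta binding protein, had 2. Of the other Smads, Smad1 had 2 Runx3 peaks, Smad6 and Smad9 had 1 each and Smad5 had 0.

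Among cofactors and regulators 12 of 23 had Runx3 peaks and 11 had none. Nedd4l, a ubiquitin ligase, had 5 with 16 H3K4me1 peaks, and Pmepa1, an inhibitor of receptor-regulated Smads, and Crebbp, a co-activator, had 2 each. Of the genes known to respond to TGF-beta 8 of 12 had Runx3 peaks and 4 had none. Id2, an inhibitor of DNA binding needed for NKC development, had 4, the closest 153 bp from its start. Itgae, which encodes the integrin CD103, had 3, all of which overlapped H3K4me1, and Junb, an AP-1 subunit, had 2. The range over the 60 genes was 0 to 5 Runx3 peaks, below the 9 of Smad3. Span differs between these genes, with the Nedd4l window reaching 370 kb and that of Id2 42.3 kb.

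**Figure D4:**
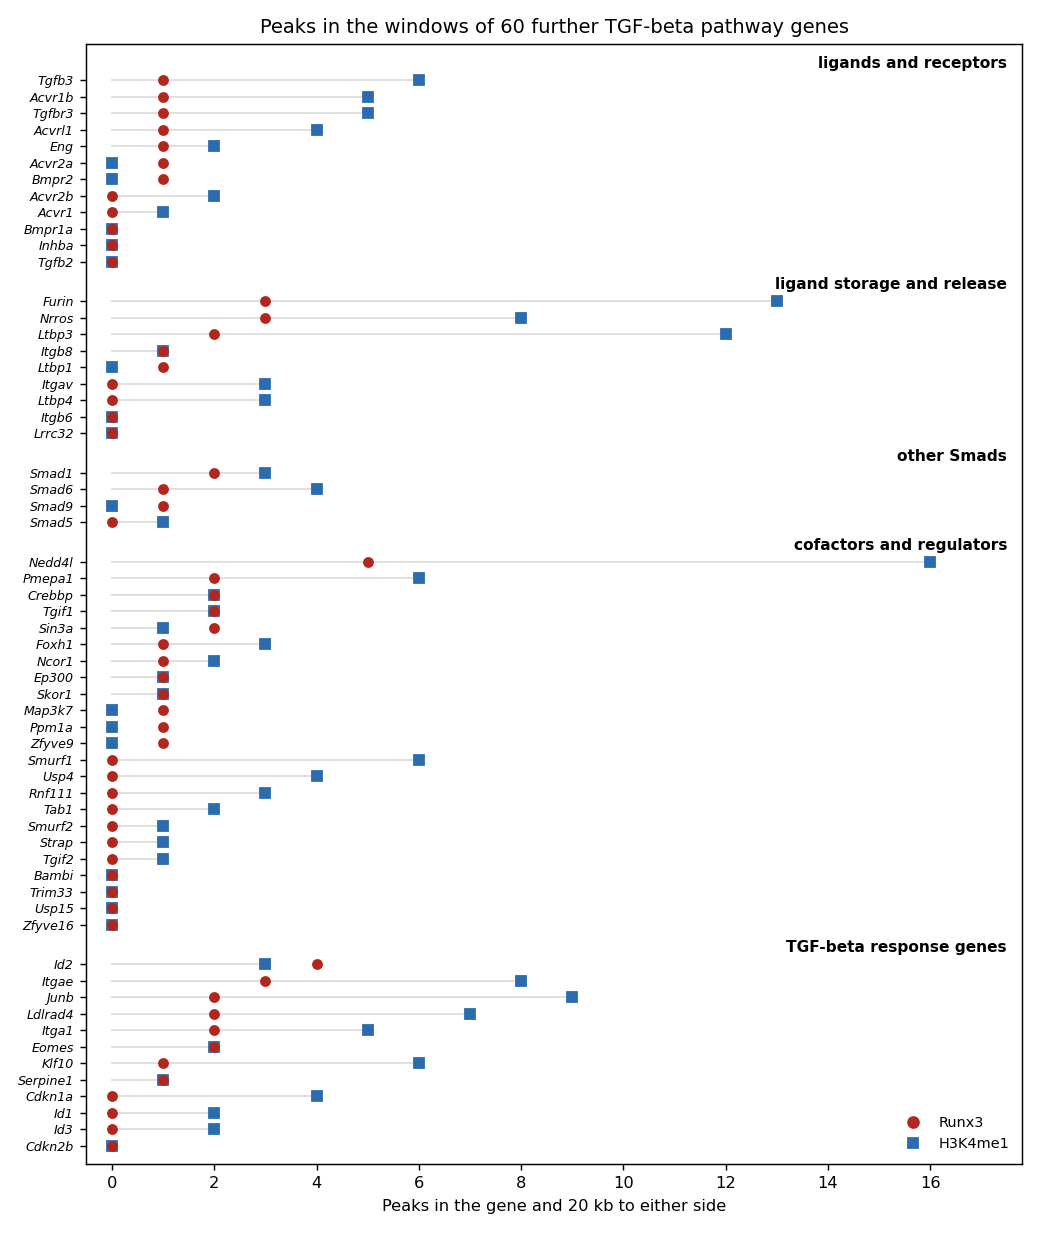
Runx3 peaks (red circles) and H3K4me1 peaks (blue squares) in the windows of 60 further pathway genes, in 5 lists. Nedd4l had the most of both, with 5 and 16, and 25 genes had no Runx3 peak.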

How the data were processed

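Per the labels and the study's methods, ELAND placed the reads on mm9, reads with a single placement were retained, and MACS compared the joined reads with NIS. The authors deposited peak positions in bp (first and last base), without scores, fold enrichment or depth. Starts, counted from 0 in the lists, are given from 1. Gene models were taken from GENCODE M1, whose genome equals mm9, for the 19 autosomes and X. Overlap needed 1 bp, distances were taken from peak centres, and the start of a gene was its outermost 5′ end. Shares carry 95% Wilson intervals for counting error. No test was run, since the peak lists used here hold no value per library. Reads of single libraries were not analysed here. Counting was tested on simulated data. Of the 60 further genes all were matched, some by older symbols. The 3 genes per list with the most Runx3 peaks were named, ties going to H3K4me1 and then to the alphabet. The genes and lists were chosen with earlier results of these data known. Alternatives were other flanks, GREAT domains, and other peak, overlap, motif and start rules. python 3.11.15, pandas 2.3.3, numpy 2.4.6, scipy 1.17.1, pysam 0.24.0, matplotlib 3.10.9 and samtools 1.23.1 were used.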

Additional observations from a re-analysis of the deposited data

How the results depend on the processing

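The number of genes with a Runx3 peak was 7 with flanks of 0, 5 or 10 kb, where Smad7 was lost, and 9 with flanks of 50 kb or GREAT domains. The number with an H3K4me1 peak was 6 with flanks of 0, 5 or 10 kb, 9 with flanks of 50 kb or GREAT domains, and 5 for peaks of at least the median width. The count of 25 Runx3 peaks became 16 without flanks and 45 in GREAT domains. The count of 89 H3K4me1 peaks became 165 in GREAT domains, 46 when peaks closer than 1 kb were joined, and 59 when only peaks of at least the median width of their list were kept, which stood in for a stricter threshold because the lists hold no score. The share of Runx3 peaks with a RUNX word was 100% without flanks and with flanks of 5 or 10 kb, which leave out the distal Skil peak, 72% when the word had to lie in the central 200 bp, and 72% for TGTGGT alone. Further pathway genes with a Runx3 peak fell from 35 to 22 without flanks. The shares of all protein-coding genes given above hold for flanks of 20 kb, and none is given for the other windows. The overlap with H3K4me1 ranged from 52% when the Runx3 centre had to lie inside an H3K4me1 peak to 73.3% in GREAT domains. Joining peaks closer than 1 kb left 7 proximal peaks, an alternative chosen after seeing the data. Smad3 had the most Runx3 peaks in 9 of 9 settings and Smad2 had 0 in 7 of them. Of 144 counts per gene under 8 alternatives, 103 stayed within 1.5 times. No paired analysis was possible because the lists hold no value per library, and for the same reason no library could be left out. Sequencing depth limits how many peaks could be called. It is stated in the study's methods but cannot be computed from the peak lists. The lack of a Runx3 peak at Smad2 does not show absence of binding. Likewise, the lack of H3K4me1 peaks at Tgfbr1 and Skil rests on 1 library and does not show absence of the mark.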
